A study of Mus musculus with 12 samples.

Results

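Peroxiredoxins are thiol enzymes that destroy hydrogen peroxide, and thioredoxins are the small proteins that recharge most of them. The genes described here are Prdx1 to Prdx6, the thioredoxins Txn1 and Txn2, and Txnip, an inhibitor of thioredoxin. They were chosen by name, as the probe sets that the array's annotation assigns to these 9 genes, with the probe set of highest mean signal standing for a gene. Of the 9 genes, 6 had a probe set of their own (Prdx2, Prdx3, Prdx4, Txn1, Txn2 and Txnip) among 22180 genes so measured. Prdx1 was annotated only on 3 probe sets that it shares with the pseudogene Gm21399, and Prdx5 and Prdx6 were on no annotated probe set, so these 3 genes were not measured on their own.

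Expression was compared in cultures of keratinocytes, the cells that build the epidermis, from mice with floxed Atg7 alleles (Atg7 f/f). KO cells carried a Cre recombinase under the K14 promoter of basal keratinocytes (Atg7 f/f K14::Cre +) and were autophagy deficient, and wt cells carried the floxed alleles without Cre (Atg7 f/f K14::Cre -). The 4 groups were KO paraquat, KO sham, wt paraquat and wt sham, each of 3 arrays called biological triplicates, with 20 µM paraquat or sham treatment given in KGM-2 medium and RNA taken 48 h later. The labels tie no array to an animal and give no age or strain, so p-values measure only the spread between these samples.

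Paraquat is a herbicide that takes electrons from cellular reductases and passes them to oxygen, making superoxide, which dismutates to hydrogen peroxide. Peroxiredoxins reduce that peroxide with a reactive cysteine, which most of them then have restored by a thioredoxin. Prdx1 and Prdx2 work mainly in the cytosol with thioredoxin (Txn1), Prdx3 in the mitochondrial matrix with mitochondrial thioredoxin (Txn2), Prdx4 in the endoplasmic reticulum (ER), and Prdx5 in several compartments, while Prdx6 draws on glutathione. Thioredoxin reductases recharge the thioredoxins from NADPH, sulfiredoxin (Srxn1) rescues overoxidised peroxiredoxins, and Txnip, an alpha-arrestin, binds and inhibits thioredoxin and restrains glucose uptake. In stressed epidermal cells several of these genes are known targets of NRF2, which binds antioxidant response elements (ARE), and Txnip is a known target of MondoA with Mlx, which bind paired E-box-like sequences in response to glucose metabolites.

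The promoter windows below are shown because they hold the ARE core, E-box or paired E-box-like letters given below, in members and partners described below. The Srxn1 window, which also held a match, is not printed. Each runs from 250 bases before to 50 bases after a RefSeq start (assembly GRCm38.p6) and is printed 5′ to 3′ on the gene's strand. Such a window was matched by symbol for 8 of the 9 genes. Capitals mark matches, on either strand, to TGACNNNGC (ARE core), CACGTG (E-box) or a pair of CACGNG sites 5 bases apart (paired E-box-like sequence). The Prdx1 window lies at chr4:116685349-116685648 (plus strand), the second of 3 Txnrd1 windows at chr10:82858956-82859255 (plus strand), the Prdx4 window at chrX:155338411-155338710 (minus strand), the Txnip window at chr3:96557707-96558006 (plus strand) and the Arrdc4 window at chr7:68749189-68749488 (minus strand).
Prdx1: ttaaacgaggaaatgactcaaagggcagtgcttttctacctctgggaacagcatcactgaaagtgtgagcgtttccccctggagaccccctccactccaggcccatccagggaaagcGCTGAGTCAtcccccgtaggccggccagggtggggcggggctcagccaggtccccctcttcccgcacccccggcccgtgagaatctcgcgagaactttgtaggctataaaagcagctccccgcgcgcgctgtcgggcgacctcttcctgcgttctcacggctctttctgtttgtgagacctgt
Txnrd1: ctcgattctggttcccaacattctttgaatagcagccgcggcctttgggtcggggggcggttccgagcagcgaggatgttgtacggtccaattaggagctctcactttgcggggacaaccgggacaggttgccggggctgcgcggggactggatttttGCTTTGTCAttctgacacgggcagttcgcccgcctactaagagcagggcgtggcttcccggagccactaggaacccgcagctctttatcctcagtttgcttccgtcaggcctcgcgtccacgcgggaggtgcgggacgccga
Prdx4: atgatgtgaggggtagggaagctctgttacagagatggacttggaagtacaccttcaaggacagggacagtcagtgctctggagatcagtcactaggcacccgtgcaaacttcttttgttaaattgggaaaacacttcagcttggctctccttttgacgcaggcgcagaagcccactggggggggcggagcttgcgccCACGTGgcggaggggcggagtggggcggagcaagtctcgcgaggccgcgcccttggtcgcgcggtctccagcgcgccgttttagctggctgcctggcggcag
Txnip: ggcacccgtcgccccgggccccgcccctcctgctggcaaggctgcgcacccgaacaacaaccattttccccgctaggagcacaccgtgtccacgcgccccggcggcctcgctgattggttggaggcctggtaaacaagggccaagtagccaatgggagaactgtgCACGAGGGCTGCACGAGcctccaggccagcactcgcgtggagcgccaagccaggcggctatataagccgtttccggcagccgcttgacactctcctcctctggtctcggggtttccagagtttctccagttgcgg
Arrdc4: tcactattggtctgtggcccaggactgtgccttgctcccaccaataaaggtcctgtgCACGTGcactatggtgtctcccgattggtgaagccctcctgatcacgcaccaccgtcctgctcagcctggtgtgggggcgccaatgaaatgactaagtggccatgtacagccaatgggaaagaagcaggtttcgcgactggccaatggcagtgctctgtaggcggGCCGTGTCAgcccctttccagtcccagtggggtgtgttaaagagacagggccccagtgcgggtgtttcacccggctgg

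Among the 8 windows, the ARE core was found in that of Prdx1 (first base 133 bases before the start), the E-box in that of Prdx4 (52 before) and the paired sequence in that of Txnip (85 before). Among the partner genes, the ARE core was in 1 of the 3 Txnrd1 windows, in the Srxn1 window and in the Arrdc4 window, which also held an E-box, and none of the motifs was in the 3 Arrdc3 windows. Of all 32851 windows in the same table, 12.4% held the ARE core, 7.15% the E-box and 0.0487% (16 windows) the paired sequence. The paired motif was written after the Txnip window had been read, so that share is a description. None of these letters was found in the windows of Prdx2, Prdx3, Prdx5, Txn1 or Txn2, which covers these 300 bases alone. A match of letters is not evidence of binding.

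Array medians were 42 to 45, and precision is limited by having 3 arrays a group. Atg7, which activates the ubiquitin-like proteins of autophagy, had signals of 129, 148 and 96 in KO paraquat, 105, 111 and 103 in KO sham, 442, 442 and 457 in wt paraquat, and 293, 356 and 286 in wt sham, so every array labelled KO was below every array labelled wt. Whether this probe set lies in the deleted part of Atg7 is not given in the sources used here. The array wt sham 2 stood apart on the second principal component (-31.4, where the rest of wt sham had -11.4 and -20.4) and KO paraquat 3 on the third (-19.7, where the rest of KO paraquat had -5.52 and -6.34). Of the basal keratinocyte markers 5 of 6 had a probe set of their own, all above the array medians in every group, and their summed signal was 16531 to 17772 in KO paraquat, 19194 to 20879 in KO sham, 15504 to 15925 in wt paraquat and 18494 to 20262 in wt sham. The 6 suprabasal markers summed to 2589 to 3285 in KO paraquat, 1126 to 1353 in KO sham, 3757 to 4357 in wt paraquat and 1565 to 1668 in wt sham. Of these, Ivl, Tgm1, Flg and Lor rose with paraquat in both genotypes, Ivl and Tgm1 giving most of the sum there, and the keratins Krt1 (log2 -1.62 in KO and -1.40 in wt) and Krt10 (-0.76 in KO and -0.61 in wt) fell. Between the genotypes, Flg, Lor and Tgm1 were lower in KO in sham, and Flg and Lor under paraquat, with 0 of the 6 higher (0 at an unadjusted p under 0.05 in limma in either). The 6 melanocyte markers summed to 842 to 896 in KO paraquat, 421 to 457 in KO sham, 854 to 910 in wt paraquat and 348 to 431 in wt sham, with the melanin enzyme Tyr, at a mean of 8.33, 9.33, 10.3 and 8 in those groups, below every array median. The 5 leukocyte markers with a probe set (of 6) summed to 1335 to 1610 in KO paraquat, 713 to 800 in KO sham, 1915 to 2002 in wt paraquat and 690 to 741 in wt sham, most of it from Cd68, with the pan-leukocyte marker Ptprc at means of 17, 15, 18 and 16.3 in those groups, below every array median. The 5 endothelial markers summed to 294 to 335 in KO paraquat, 191 to 208 in KO sham, 363 to 443 in wt paraquat and 172 to 192 in wt sham, with Cdh5 and Emcn below the array medians. The 6 fibroblast markers summed to 223 to 236 in KO paraquat, 218 to 230 in KO sham, 235 to 266 in wt paraquat and 223 to 253 in wt sham, with Dcn and Lum below the array medians in every group. The suprabasal, melanocyte, leukocyte and endothelial sums were higher, and the basal sum lower, under paraquat than in sham in both genotypes. Most of the melanocyte rise was from Mlana (means of 358 in KO paraquat, 69.7 in KO sham, 379 in wt paraquat and 64.3 in wt sham). Most of the endothelial rise was from Kdr (149, 58, 248 and 53.3 in those groups). Past the threshold, 4 of 6 melanocyte markers rose in each genotype, and 2 of 5 endothelial markers in KO and 3 in wt. The part of these sums in the results below was not tested. A lower signal from fewer cells of a type and one from less RNA per cell cannot be told apart in these cultures.

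**Figure D1:**
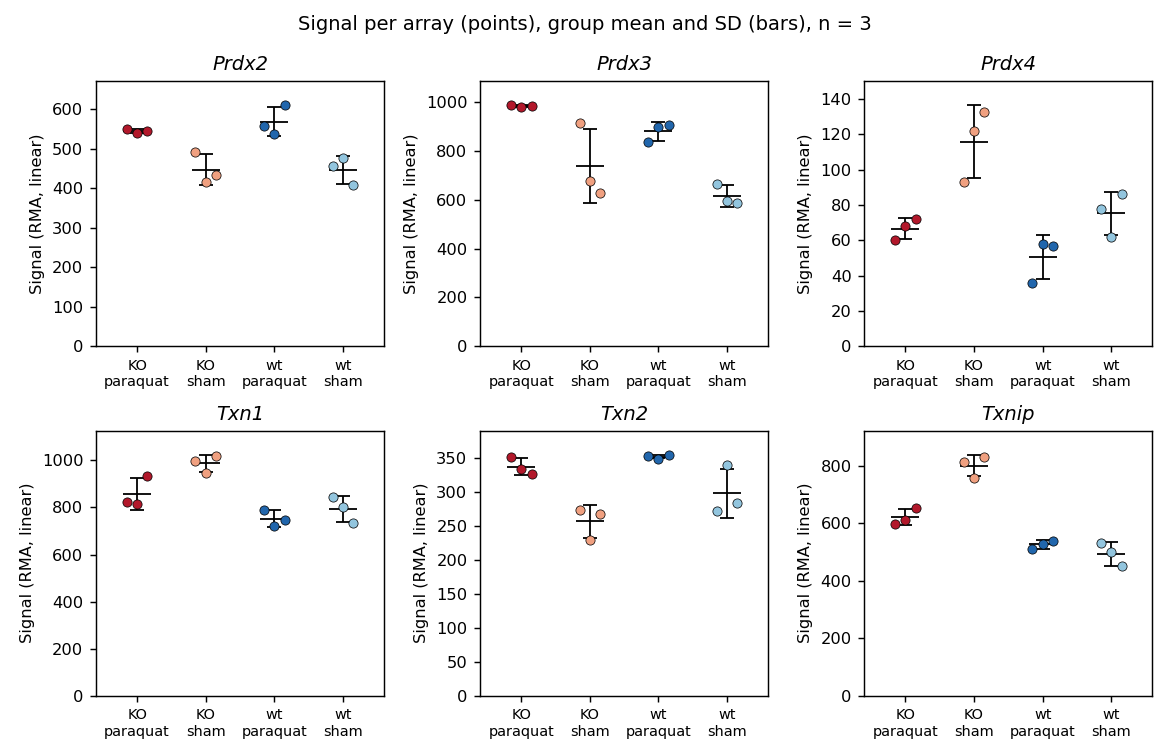
Signal per array (linear RMA units) of the 6 genes with a probe set of their own, in KO paraquat, KO sham, wt paraquat and wt sham; points are arrays, horizontal marks the mean and bars the SD (n = 3). Prdx3 is 980 to 989 in KO paraquat against 628 to 914 in KO sham, Prdx4 runs the other way, and Txnip stands highest in KO sham (759 to 830).

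The first question was how paraquat changed these genes in each genotype. The mitochondrial peroxiredoxin Prdx3 and the cytosolic Prdx2 rose in KO and in wt cells, the ER peroxiredoxin Prdx4 fell in both, the mitochondrial thioredoxin Txn2 rose in KO, and Txnip fell in KO. In KO cells 3 of the 6 genes rose and 2 fell at a Benjamini-Hochberg adjusted p under 0.05 in limma's moderated test, where 27.1% of all 22180 genes passed (14.5% higher and 12.6% lower). In wt cells 2 rose and 1 fell, where 29.2% of all genes passed (14.9% higher and 14.3% lower). The median log2 change of the 6 genes was 0.04 in KO and 0.17 in wt, beside 0.01 over all genes in both. In KO the number that rose was 1 without KO sham 2, without KO sham 3, or without both wt sham 2 and KO paraquat 3, and in wt the number that fell was 0 without wt sham 1, wt sham 3 or wt paraquat 1. These shares rest on 6 genes and are a description. Paraquat and sham arrays did not overlap for 6 of the 6 genes in KO, where 37.2% of all genes had no overlap, and for 4 of the 6 in wt, where 37.6% had none.

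Prdx3 had signals of 989, 980 and 985 in KO paraquat, against 914, 678 and 628 in KO sham. It had 838, 900 and 906 in wt paraquat, against 666, 594 and 586 in wt sham. Paraquat arrays were above all sham arrays of their genotype, and the KO sham arrays were spread widely, with KO sham 1 close to the paraquat level. Prdx3 rose 1.35-fold in KO (log2 0.43 ± 0.12, moderated SE, n = 3 a group, adjusted p = 0.0149 in limma). It rose 1.43-fold in wt (log2 0.52 ± 0.12, adjusted p = 0.0042 in limma). Here and below, the SE of a log2 change in limma uses a spread shared by all 12 arrays, not by the compared groups alone. The KO call was lost without KO sham 2 (adjusted p = 0.0631 in limma) or without KO sham 3 (0.0713), and also without both wt sham 2 and KO paraquat 3 (0.0508) or in a fit of only the 6 KO arrays (0.0641). The wt call held in all 23 alternatives.

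Its electron donor Txn2 had signals of 351, 334 and 326 in KO paraquat, against 274, 229 and 267 in KO sham. It had 353, 349 and 354 in wt paraquat, against 272, 339 and 283 in wt sham. The groups did not overlap in either genotype, but wt sham 2 lay near the paraquat level. Txn2 rose 1.32-fold in KO (log2 0.40 ± 0.10, moderated SE, n = 3 a group, adjusted p = 0.00756 in limma). In wt its log2 change was 0.25 ± 0.10 (adjusted p = 0.0776 in limma), and without wt sham 2 it was 0.34 (adjusted p = 0.0135 in limma). With all arrays kept it passed with an offset of 16 added to each signal (0.24, adjusted p = 0.0478 in limma) and with a filter on dim genes (0.25, adjusted p = 0.0425 in limma).

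Prdx2, the cytosolic peroxiredoxin abundant in red blood cells, had signals of 551, 540 and 546 in KO paraquat, against 492, 416 and 435 in KO sham. It had 558, 539 and 611 in wt paraquat, against 456, 477 and 408 in wt sham. No sham array reached the lowest paraquat array of its genotype. It rose 1.22-fold in KO (log2 0.29 ± 0.09, moderated SE, n = 3 a group, adjusted p = 0.0291 in limma) and 1.27-fold in wt (log2 0.35 ± 0.09, adjusted p = 0.00918 in limma). The KO call was lost without KO sham 2 (adjusted p = 0.111 in limma), KO sham 3 (0.0831), KO paraquat 1 (0.0777), KO paraquat 2 (0.0648) or KO paraquat 3 (0.0671), and without both wt sham 2 and KO paraquat 3 (0.0614).

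Txn1, the cytosolic thioredoxin that serves Prdx1 and Prdx2, had signals of 823, 814 and 935 in KO paraquat, against 997, 948 and 1018 in KO sham. It had 790, 720 and 745 in wt paraquat, against 843, 802 and 734 in wt sham. The KO groups did not overlap and the wt groups did. Its log2 change was -0.21 ± 0.09 in KO (moderated SE, n = 3 a group, adjusted p = 0.0962 in limma) and -0.08 ± 0.09 in wt (adjusted p = 0.59 in limma), with 95% intervals of -0.39 to -0.02 and -0.26 to 0.11. Without KO paraquat 3 the KO change was -0.27 (adjusted p = 0.0464 in limma), and it also passed without both wt sham 2 and KO paraquat 3 (0.0486), with an offset of 16 added to each signal (-0.20, adjusted p = 0.0474) and with a second quantile normalization (-0.25, adjusted p = 0.0414).

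Prdx4, which reduces peroxide in the ER and passes the oxidising power to protein disulfide isomerases, had signals of 60, 68 and 72 in KO paraquat, against 93, 122 and 133 in KO sham. It had 36, 58 and 57 in wt paraquat, against 78, 62 and 86 in wt sham. The wt paraquat signals are close to the array medians of 42 to 45, and the KO sham signals are the furthest above them. No background measure was given, so whether these signals exceed background is unknown. Paraquat arrays were below all sham arrays of their genotype, by a narrow gap in wt. Prdx4 fell 1.73-fold in KO (log2 -0.79 ± 0.19, moderated SE, n = 3 a group, adjusted p = 0.00622 in limma) and 1.52-fold in wt (log2 -0.60 ± 0.19, adjusted p = 0.0269 in limma). The wt call was lost without wt sham 1 (adjusted p = 0.079 in limma), wt sham 3 (0.112) or wt paraquat 1 (0.123), in a fit of only the 6 wt arrays (0.0802), and in one of every probe set (0.0588). Without wt paraquat 1, the lowest array, the wt log2 change was -0.38.

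Genes of oxidative folding in the ER, the pathway Prdx4 serves, were given as a list. Of its 8 measured genes (of 9), 4 fell in KO and none rose, with a median log2 change of -0.48, and 4 fell and 1 rose in wt, with a median of -0.27. In KO, 1 gene was higher at an unadjusted p under 0.05 in limma. Beside this and the later list counts, 27.1% of all genes passed in the KO response and 29.2% in the wt response. At an unadjusted p under 0.05 in limma, 8042 of all 22180 genes changed in KO and 8195 in wt. A call in 1 genotype and not in the other is not a test of a difference between them. The lists were chosen with earlier results of these data known, so their counts are a description. Pdia6, a disulfide isomerase, fell by 0.83 on the log2 scale in each genotype (adjusted p = 3.76e-06 in KO and 1.94e-06 in wt, limma). P4hb, the main disulfide isomerase, changed by -0.75 and -0.43, Ero1a, which recharges it and makes peroxide, by -0.64 and -1.41, and the sulfhydryl oxidase Qsox1 by -0.69 and -0.62, in KO and in wt, all past the threshold. The paralog Ero1b rose in wt (log2 0.52, adjusted p = 0.00491 in limma), and its change in KO was 0.34 (adjusted p = 0.0538 in limma). Without wt paraquat 2, Gpx7 also passed in wt (adjusted p = 0.0468 in limma). In KO, Ero1b passed as higher without wt sham 2, wt sham 3, wt paraquat 2 or wt paraquat 3 (adjusted p = 0.0374, 0.0353, 0.0471 and 0.038 in limma). Gpx8 passed in KO as lower without wt sham 1 (0.0166), wt sham 2 (0.0127), or both wt sham 2 and KO paraquat 3 (0.0318). The wt arrays enter KO changes only through the shared spread.

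**Figure D2:**
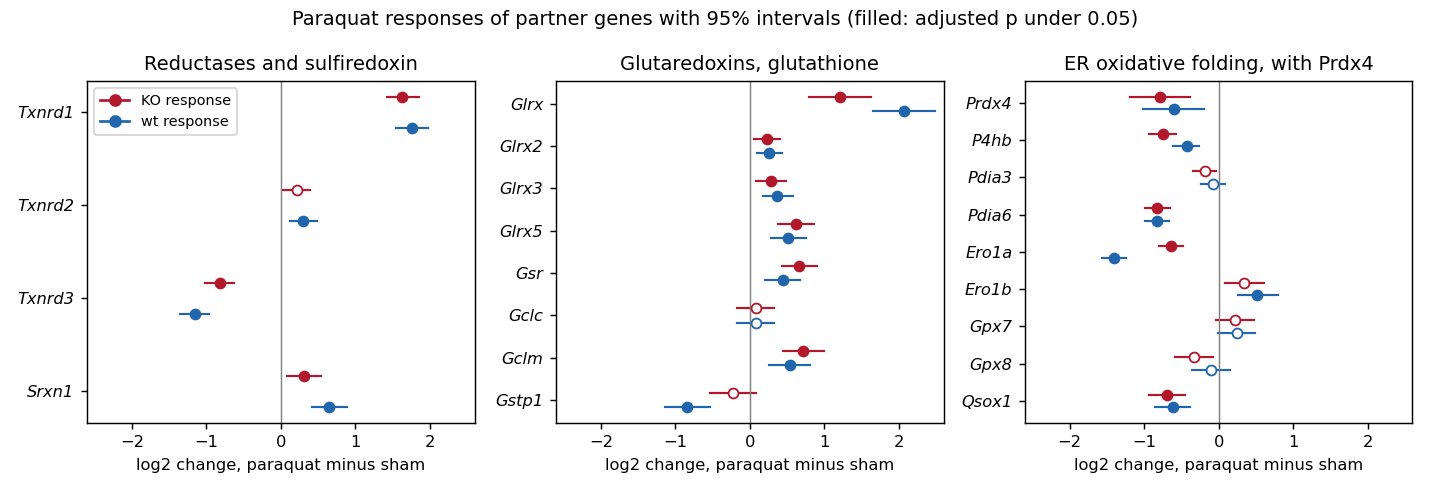
Log2 change with paraquat (points) and 95% intervals (lines) for the reductases and sulfiredoxin, the glutaredoxins and glutathione genes, and the ER oxidative folding genes with Prdx4; KO response above wt response, filled where the adjusted p is under 0.05. Txnrd1 (1.63 in KO and 1.76 in wt) and Glrx (1.21 and 2.07) lie far to the right, and most ER genes lie left of 0.

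The genes that recharge or repair these enzymes were compared next. Txnrd1, the cytosolic reductase of thioredoxin, had signals of 2224, 1871 and 1967 in KO paraquat, against 644, 661 and 645 in KO sham. It had 2127, 2130 and 2022 in wt paraquat, against 582, 724 and 565 in wt sham. The paraquat and sham arrays were far apart in both genotypes. It rose 3.10-fold in KO (log2 1.63 ± 0.10, moderated SE, n = 3 a group, adjusted p = 1.68e-07 in limma) and 3.38-fold in wt (log2 1.76 ± 0.10, adjusted p = 3.48e-08 in limma). Txnrd1 thus rose while its substrate Txn1 did not pass the test in either genotype.

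Of the 4 genes in the list of reductases and sulfiredoxin, 2 rose and 1 fell in KO (median log2 0.26), and 3 rose and 1 fell in wt (median 0.48). Txnrd2, the mitochondrial reductase that recharges Txn2, rose in wt (log2 0.30, adjusted p = 0.0131 in limma), and its change in KO was 0.21 (adjusted p = 0.0825 in limma). Its wt call was lost without wt sham 3 (0.0556) or wt paraquat 3 (0.0511). Txnrd3, a reductase with a glutaredoxin domain known from testis, fell in KO (log2 -0.82) and in wt (-1.15). Srxn1 rose 1.57-fold in wt (log2 0.65 ± 0.11, moderated SE, n = 3 a group, adjusted p = 0.000324 in limma), with signals of 391, 421 and 429 in wt paraquat, against 278, 243 and 268 in wt sham. In KO it rose 1.24-fold (log2 0.31, adjusted p = 0.0447 in limma), with signals of 407, 311 and 334 in KO paraquat, against 305, 260 and 279 in KO sham. That KO call was lost in 9 of the 12 fits without a single array, with adjusted p up to 0.197 without KO paraquat 1.

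The glutathione arm, which can stand in for thioredoxin, rose for most of its genes. Of 8 glutaredoxin and glutathione genes, 6 rose in KO and none fell (median log2 0.45; 0 were lower at an unadjusted p under 0.05 in limma), and 6 rose and 1 fell in wt (median 0.41). Mitochondrial Glrx2 (log2 0.23, adjusted p = 0.0474 in limma) and the iron-linked Glrx3 (log2 0.28, adjusted p = 0.0406 in limma) were near the threshold in KO, and the number that rose there was 4 without KO sham 2, KO paraquat 2, KO paraquat 3, wt paraquat 1 or wt paraquat 3, or without both wt sham 2 and KO paraquat 3. Glrx, the cytosolic glutaredoxin, had signals of 1863, 2159 and 1816 in KO paraquat, against 1099, 858 and 623 in KO sham, and 2725, 3100 and 2695 in wt paraquat, against 625, 885 and 559 in wt sham. It rose 2.32-fold in KO (adjusted p = 0.000329 in limma) and 4.19-fold in wt (adjusted p = 2.5e-06 in limma). Mitochondrial Glrx5 rose by log2 0.62 in KO and 0.51 in wt, Gsr, which reduces oxidised glutathione, by 0.66 and 0.44, and Gclm, a subunit of the first enzyme of glutathione synthesis, by 0.71 and 0.54. Gstp1, which restores Prdx6, fell in wt (log2 -0.84, adjusted p = 0.000495 in limma). Its change in KO was -0.23 (adjusted p = 0.284 in limma, and 0.0316 without KO sham 3). The KO and wt responses of Glrx and Gstp1 did not differ past the threshold (adjusted p = 0.135 and 0.157 in limma). That of Gstp1 passed without KO sham 1 (0.0331).

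Other peroxide enzymes and the NRF2 list were counted in the same way. Of catalase and 4 glutathione peroxidases, 1 rose and 0 fell in KO (0 lower at an unadjusted p under 0.05 in limma), and 3 rose and 1 fell in wt, with Gpx3, the secreted peroxidase, up by log2 1.36 in KO and 1.24 in wt. Catalase rose in wt (log2 0.45) and passed in KO without KO sham 1 (log2 0.34, adjusted p = 0.0121 in limma). Gpx1 rose in wt (log2 0.51, adjusted p = 0.000202 in limma), and its change in KO was 0.12 (adjusted p = 0.317). Gpx4 fell in wt (log2 -0.32, adjusted p = 0.01 in limma), and its change in KO was -0.05 (adjusted p = 0.741). The KO and wt responses of Gpx1 and Gpx4 did not differ past the threshold (adjusted p = 0.0905 and 0.293 in limma). Of 10 NRF2 regulators and targets (Txnrd1, Srxn1 and Gclm are also in lists above), 6 rose and 1 fell in KO, with a median of 0.51, and 5 rose and 3 fell in wt, with a median of 0.30. The repressor Bach1 fell in both (log2 -0.43 in KO and -0.30 in wt), and its wt call was lost without wt sham 1 (adjusted p = 0.0831 in limma), wt paraquat 1 (0.0656) or wt paraquat 3 (0.0692). The cystine carrier Slc7a11 fell in wt (log2 -0.67, adjusted p = 0.00026 in limma) but rose in KO (1.05, adjusted p = 8.44e-06). Mafg fell in wt (-0.44, adjusted p = 0.00219 in limma), and its change in KO was 0.10 (adjusted p = 0.505). Nqo1, a quinone reductase, rose by log2 1.34 and 1.92 and Hmox1, which degrades haem, by 1.59 and 1.90, in KO and in wt. Nfe2l2, which encodes NRF2, changed by 0.18 in KO (adjusted p = 0.141 in limma) and 0.07 in wt (adjusted p = 0.619 in limma).

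Proteins that share the thioredoxin fold, and the listed clients of thioredoxin (proteins it reduces or binds, and partner subunits), were mixed. Of 22 thioredoxin-fold relatives, 5 rose and 9 fell in KO (median log2 -0.08), and 6 rose and 7 fell in wt (median -0.02). The number that fell in KO was 6 without KO sham 3 or KO paraquat 1. Txndc16 fell by 0.97 in KO and 1.69 in wt and Txndc5, an ER disulfide isomerase, by 0.68 and 0.95 on the log2 scale. The ER membrane isomerase Tmx3 changed by -0.57 in KO and -0.94 in wt, Txndc9 by 0.68 and 0.72, and the spliceosome protein Txnl4a by 0.56 and 0.34, all past the threshold. Of 8 measured clients of thioredoxin (of 9), 3 rose and 3 fell in KO, and 2 fell in wt, where 0 rose and 0 were higher at an unadjusted p under 0.05 in limma. Msrb3, which repairs oxidised methionine, fell by 1.31 in KO and 1.76 in wt on the log2 scale. Rrm1 and Rrm2, the subunits of ribonucleotide reductase, changed by -1.09 and -0.71 in KO, both past the threshold. Rrm1 in wt sham 2 had a signal of 473, where the rest of wt sham had 1029 and 756, and its wt change of -0.14 (adjusted p = 0.681 in limma) passed without that array (adjusted p = 0.0316 in limma). The clients that rose in KO were Map3k5 (log2 0.39), the methionine repair enzyme Msra (0.39) and the stress-induced ribonucleotide reductase subunit Rrm2b (0.42). Without KO paraquat 3, Map3k5 alone of these passed, as also without both wt sham 2 and KO paraquat 3.

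Txnip had signals of 597, 613 and 652 in KO paraquat, against 814, 759 and 830 in KO sham. It had 511, 529 and 540 in wt paraquat, against 531, 500 and 450 in wt sham. The KO groups stood clearly apart, and the wt groups overlapped. Txnip fell 1.29-fold in KO (log2 -0.37 ± 0.08, moderated SE, n = 3 a group, adjusted p = 0.00419 in limma), and the call held without any single array, with adjusted p from 0.00108 to 0.0212 over all alternatives. In wt the log2 change was 0.10 ± 0.08 (95% interval -0.08 to 0.27, adjusted p = 0.458 in limma).

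The alpha-arrestins related to Txnip and its transcriptional regulators were counted next. Of 8 alpha-arrestins and regulators of Txnip, 3 rose in each genotype and 0 fell (median log2 0.11 in KO and 0.22 in wt), with 0 lower at an unadjusted p under 0.05 in limma in either. Arrdc4, the closest relative in its known glucose regulation, had signals of 714, 671 and 643 in KO paraquat, against 575, 551 and 524 in KO sham, and 823, 820 and 810 in wt paraquat, against 448, 406 and 485 in wt sham. It rose 1.23-fold in KO (adjusted p = 0.0168 in limma) and 1.84-fold in wt (adjusted p = 3.15e-06 in limma). The KO call was lost without KO sham 3 (0.063) or KO paraquat 1 (0.0726), leaving 2 genes that rose, and Arrdc2 also passed in KO without KO sham 1 (log2 0.32, adjusted p = 0.0133 in limma). Arrdc3 rose 2.95-fold in KO and 3.33-fold in wt, and Mlx, the partner of MondoA, rose 1.52-fold in KO and 1.82-fold in wt. Mlxip, which encodes MondoA, did not pass, with log2 changes of -0.09 in KO (adjusted p = 0.499 in limma) and -0.12 in wt (adjusted p = 0.302 in limma).

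**Figure D3:**
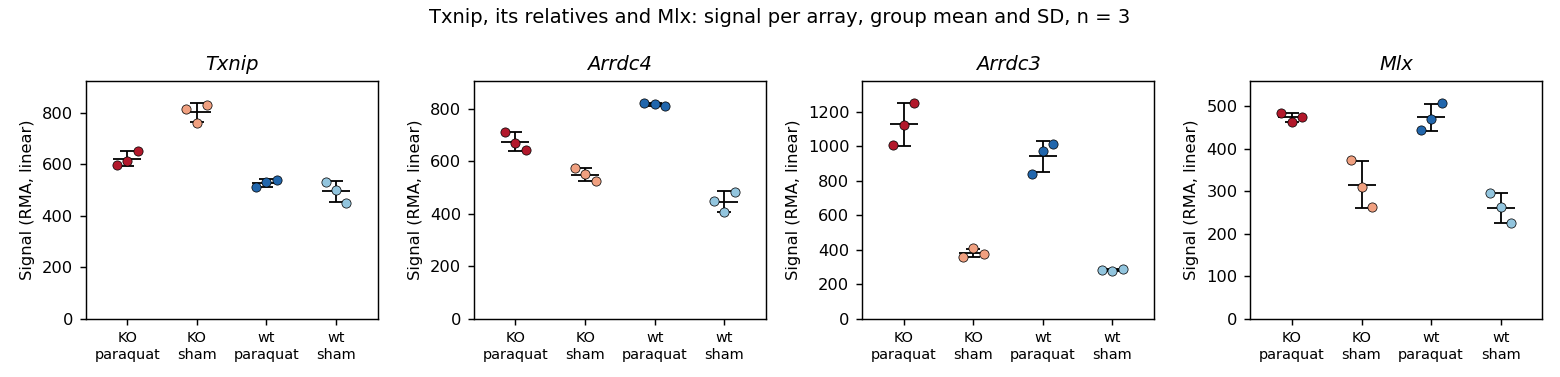
Signal per array (linear RMA units) of Txnip, its relatives Arrdc4 and Arrdc3, and Mlx in KO paraquat, KO sham, wt paraquat and wt sham; points are arrays, horizontal marks the mean and bars the SD (n = 3). Txnip is highest in KO sham, while Arrdc4, Arrdc3 and Mlx are higher under paraquat than in sham in both genotypes.

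The second question was how loss of Atg7 changed these genes. In sham cultures Txnip and Txn1, the inhibitor and its target, were higher in KO, and no gene of the 6 was lower past the threshold. This made 2 of 6 higher, where 10.2% of all genes passed in limma (4.58% higher and 5.67% lower). At an unadjusted p under 0.05 in limma 3 of the 6 were higher and 1 lower, where 4991 of all 22180 genes differed. The median log2 difference of the 6 genes was 0.28, beside -0.01 over all genes. The 6 suprabasal markers had a median of -0.41 in the same comparison, with 3 lower, and of -0.53 for KO against wt under paraquat, with 2 lower, and their part in the genotype results was not tested. For Prdx4, Txn1 and Txnip, 3 of the 6, the KO and wt arrays did not overlap, where 22.7% of all genes had no overlap.

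From the sham values above, all KO sham arrays of Txnip were above all wt sham arrays, at a mean signal of 801 ± 37.2 in KO sham and 494 ± 40.9 in wt sham (SD, n = 3 each). Txnip was 1.63-fold higher in KO (log2 0.70 ± 0.08, SE, adjusted p = 0.000236 in limma), and 2.59% of all genes differed by more. The call held in all 23 alternatives, with log2 differences of 0.64 to 0.75. Txn1 averaged 988 ± 35.9 in KO sham and 793 ± 55.1 in wt sham (SD, n = 3 each), with no overlap, and was 1.25-fold higher (log2 0.32 ± 0.09, SE, adjusted p = 0.0313 in limma). The Txn1 call was lost without KO sham 1 (adjusted p = 0.0768 in limma), KO sham 2 (0.0531), KO sham 3 (0.0919), wt sham 2 (0.0696) or wt sham 3 (0.119), and with each array centred on its median (0.0514), in a fit of only the 6 sham arrays (0.0906) and in one of every probe set (0.0601).

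The remaining genes did not pass in sham cultures. Prdx4 averaged 116 ± 20.7 in KO sham and 75.3 ± 12.2 in wt sham (SD, n = 3 each), 1.54-fold higher without overlap (log2 0.62 ± 0.19, SE, adjusted p = 0.0541 in limma), and passed without KO sham 1 (0.0335) or without wt paraquat 1 (0.0203), which enters only through the shared spread. It also passed with an offset of 16 (0.0375), a filter on dim genes (0.0288), an intensity trend (0.0416) and the replicate number as a block (0.0262). Prdx3 differed by log2 0.25 (adjusted p = 0.237 in limma), Txn2 by -0.21 (0.216) and Prdx2 by 0.00 (adjusted p = 1 in limma, 95% interval -0.19 to 0.20).

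**Figure D4:**
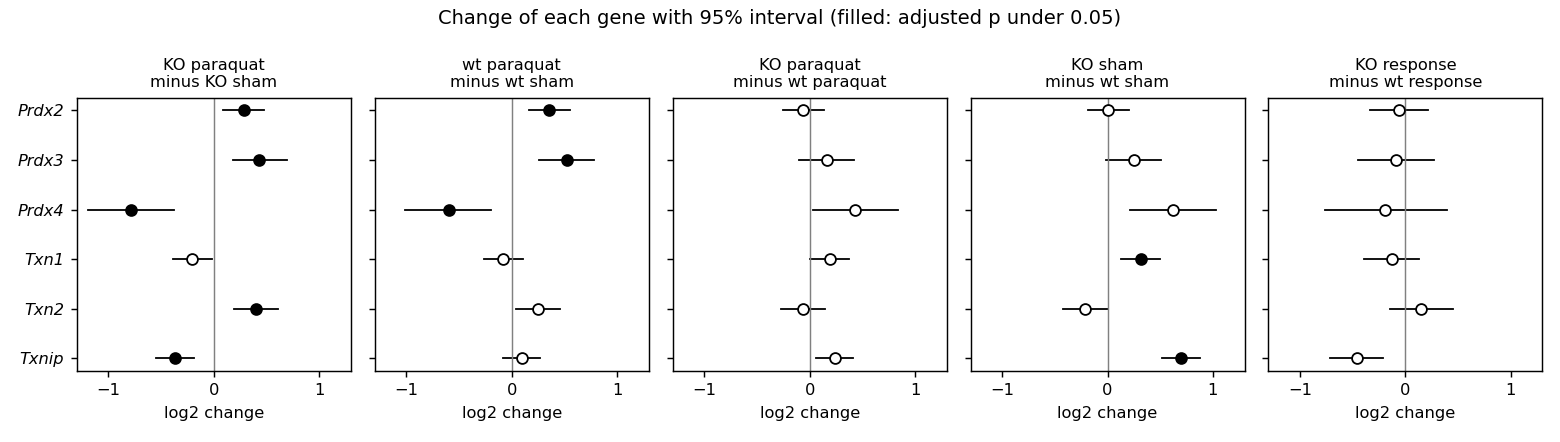
Log2 change (points) and 95% interval (lines) of the 6 genes in the 5 comparisons, filled where the adjusted p is under 0.05. Prdx2 and Prdx3 lie right of 0 and Prdx4 left of it in both paraquat responses, and Txnip (0.70) and Txn1 (0.32) are the filled points for KO against wt in sham.

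Under paraquat, 0 of the 6 genes differed between KO and wt past the threshold. Over all genes, 0.55% passed in limma (0.0992% higher and 0.451% lower). At an unadjusted p under 0.05 in limma, 2448 of all 22180 genes differed, and 3 of the 6 were higher in KO. These were Txnip (621 ± 28.3 in KO paraquat and 527 ± 14.6 in wt paraquat, SD, n = 3 each, adjusted p = 0.287 in limma), Prdx4 (66.7 ± 6.11 in KO paraquat and 50.3 ± 12.4 in wt paraquat, adjusted p = 0.415) and Txn1 (857 ± 67.4 in KO paraquat and 752 ± 35.5 in wt paraquat, adjusted p = 0.442). All 3 were without overlap between the groups, as was Prdx3, where 17% of all genes were. Their log2 differences were 0.24, 0.43 and 0.19, and those of Prdx2, Prdx3 and Txn2 were -0.06, 0.16 and -0.06.

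The KO response minus the wt response was tested directly, and 0 of the 6 genes passed. Over all genes, 2.29% passed in limma (1.39% higher and 0.897% lower in KO). At an unadjusted p under 0.05 in limma, where 3376 of all 22180 genes differed, 1 gene of the 6 did. That gene was Txnip, with a log2 difference of -0.46 ± 0.12 (SE, adjusted p = 0.0588 in limma). It passed without wt sham 1 (log2 -0.52, adjusted p = 0.0356 in limma), and also with an offset of 16 added to each signal (0.0208), an intensity trend (0.0252), a filter on dim genes (0.0271) or a second quantile normalization (0.0495). Over all alternatives the adjusted p ran from 0.0208 to 0.133. The 95% intervals of the difference were -0.34 to 0.21 for Prdx2, -0.45 to 0.27 for Prdx3, -0.76 to 0.39 for Prdx4, -0.39 to 0.13 for Txn1 and -0.15 to 0.45 for Txn2.

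Partner lists were compared between the genotypes in the same fits, where 10.2% of all genes passed in sham and 0.55% under paraquat. At an unadjusted p under 0.05 in limma, 4991 of all 22180 genes differed in sham. In sham cultures, none of the reductases and sulfiredoxin and none of the glutathione list passed, with 1 of 4 and 0 of 8 at an unadjusted p under 0.05 in limma. Of the 8 clients, 2 were higher in KO and 1 lower, namely Rrm2 (log2 1.16), Rrm1 (1.22) and the kinase Map3k5 (-0.31), which thioredoxin holds inactive. The Map3k5 call was lost without wt sham 1, wt sham 2, wt sham 3 or KO sham 1 (adjusted p = 0.0524, 0.0947, 0.0686 and 0.108 in limma). Of the 8 alpha-arrestins and regulators, Arrdc3 (0.43) and Arrdc4 (0.30) were higher and 0 lower (0 at an unadjusted p under 0.05 in limma). The Arrdc3 call was lost without wt sham 2 (0.0549) or KO sham 2 (0.0654), and the Arrdc4 call in 7 of 12 fits without a single array, with adjusted p up to 0.129 without wt sham 2. The number higher was thus 0 without wt sham 2 or KO sham 2, and without KO sham 1 Arrdc2 was lower (log2 -0.31, adjusted p = 0.0411 in limma).

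Of the 22 thioredoxin-fold relatives, 3 were higher and 2 lower in KO sham, with Txndc16 (log2 -0.92), Txndc12 (-0.52), Tmx2 (0.33) and Txnl1 (0.30) among them, and the number higher was 0 without wt sham 2, wt sham 3 or KO sham 1. Of the ER folding genes, P4hb (0.41) was higher and Ero1a (-0.60) lower, with 3 higher without wt sham 1, and of the peroxidases Gpx1 (0.54) was higher and 0 were lower, with 1 at an unadjusted p under 0.05 in limma. Of the NRF2 list, Nqo1 (0.83) and Bach1 (0.38) were higher and Slc7a11, the cystine carrier (-1.35), and Mafg (-0.42) lower. The Bach1 call was lost without wt sham 2 (adjusted p = 0.0616 in limma) or KO sham 1 (0.0548). Under paraquat no list had a gene past the threshold. At an unadjusted p under 0.05 in limma, 2448 of all 22180 genes differed there. At that cut 1 of 4 reductases and sulfiredoxin, 3 of 8 glutathione genes and 4 of 22 thioredoxin-fold relatives differed. Of the alpha-arrestins and regulators 3 of 8 differed, and of the clients 1 of 8. The other counts were 1 of 8 ER genes, 0 of 5 peroxidases, 5 of 10 NRF2 genes and 1 of 3 sestrins. Sestrins, stress proteins linked to peroxiredoxin recycling, were listed because of that link, and Sesn2 rose with paraquat in KO (log2 1.25). In wt 0 of the 3 sestrins passed in limma, with 0 at an unadjusted p under 0.05, and in sham Sesn2 was lower in KO (-1.21) and Sesn1 higher (0.56). The Sesn1 call was lost without wt sham 2 (log2 0.35, adjusted p = 0.053 in limma), KO sham 1 (0.0745), KO sham 2 (0.0547) or KO sham 3 (0.0702).

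Genes with the most similar profiles were found as those with the smallest root mean square difference in log2 signal over the 12 arrays, each gene centred on its mean. The other members, predicted, clone-named and pseudogene symbols, small RNAs, and olfactory and vomeronasal receptors were left out of this search. Nearest to Txnip were Tpmt, a thiopurine methyltransferase (0.073), Acly, which makes cytosolic acetyl-CoA (0.091), and Glo1, which detoxifies methylglyoxal with glutathione (0.094). Nearest to Prdx3 were Spr, which makes the cofactor tetrahydrobiopterin (0.051), Slc31a2 (0.07) and Ciao2a (0.094). Nearest to Prdx2 were Cdc42ep4 (0.052), Ctse (0.055) and Mrpl28 (0.057). Nearest to Txn2 were Ess2 (0.053), Bin3 (0.055) and Rnf4 (0.06), and nearest to Txn1 were Dcaf13 (0.066), Psmd12 (0.069) and Serpinb5 (0.075). Prdx4 had looser neighbours in Cdca3 (0.175), Hltf (0.186) and Gsdmc (0.2). The 12 values of a gene hold 4 group means, so likeness here is mainly likeness of those means.

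Probe sets shared with other genes carry no value for a single gene and were fitted with all 41345 probe sets of the table. The brightest one annotated to Prdx1 and Gm21399, a Prdx1 pseudogene, had signals of 3288, 3266 and 3843 in KO paraquat, against 3575, 3288 and 3365 in KO sham. It had 3177, 2953 and 3082 in wt paraquat, against 3201, 3528 and 2808 in wt sham. Paraquat and sham arrays overlapped in both genotypes, and its log2 change was 0.02 in KO (adjusted p = 0.928 in limma) and -0.04 in wt (adjusted p = 0.829 in limma), beside 19.4% and 20.2% of all probe sets past the threshold. Between KO and wt it differed by 0.17 under paraquat, where the arrays did not overlap (adjusted p = 0.673 in limma), and 0.11 in sham (adjusted p = 0.656 in limma), where 0.128% and 5.12% of all probe sets passed. Its difference between the responses was 0.06 (adjusted p = 0.909 in limma), where 0.718% passed. A dimmer probe set of the same pair averaged 81.7 in KO paraquat, 81.7 in KO sham, 64.3 in wt paraquat and 83.7 in wt sham, and passed in the wt response (log2 -0.38, adjusted p = 0.0181 in limma) without passing in the KO response (log2 0.00, adjusted p = 1). The third, also annotated to the noncoding AV051173, had means of 32.3 in KO paraquat, 27.7 in KO sham, 37 in wt paraquat and 36 in wt sham, below the array medians, and passed for KO against wt in sham (log2 -0.38, adjusted p = 0.0186 in limma). A probe set shared by Txnip and the noncoding Gm15441 passed in no comparison, with means of 61.0 in KO paraquat, 69.7 in KO sham, 55.7 in wt paraquat and 55.3 in wt sham.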

How the data were processed

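RNA from 12 keratinocyte cultures was hybridised to 1-colour Affymetrix arrays, 3 per group. The authors deposited 1 intensity per probe set and array, made by RMA, which corrects background, normalizes by quantiles and summarises probes; the submitters' processing notes name Affymetrix Expression Console, version 1.3.1.187. Those values are whole numbers from 3 to 17695, so they were taken as linear intensities and log2 was applied, with no further normalization. RMA makes arrays share 1 distribution, so changes are relative to it, and whole numbers coarsen dim genes. Background was not given. The genome build of the array design is not given in the sources used here.

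Of 41345 probe sets, 23521 carried 1 gene symbol, 1814 several and 16010 none. Symbols were checked against RefSeq (GRCm38.p6) by gene ID, with 23328 matched and 0 changed. The probe set of highest mean stood for a gene, giving 22180 genes. Group means were fitted with limma 3.58.1 (R 4.3.3; lmFit and eBayes over all 4 groups, no block), with Benjamini-Hochberg adjustment over all genes in each of 5 comparisons, 2-sided, and a threshold of 0.05. The procedure was tested on simulated data. Same-numbered arrays of different groups did not deviate together (18 pairs, correlations -0.073 to 0.09), so numbers were not taken as pairs. No arrays were identical.

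Members and gene lists were chosen with earlier results of these data known. Genes named from each list were at most the 4 called genes with the smallest p, or values for the smallest p where none was called, with a few others chosen after their values were seen. Alternatives were an offset of 16, a second quantile normalization, median centring, a filter on dim genes, averaging the probe sets of a gene, testing every probe set, only the arrays compared, the replicate block, an intensity trend and each array left out. Leaving out wt sham 2 with KO paraquat 3, and the list counts without each array, were added after seeing the data. Promoter windows came from RefSeq.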

Additional observations from a re-analysis of the deposited data

Results flagged for a closer look

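None of the 6 genes had a KO response to paraquat that differed from the wt response past the threshold. In the partner lists 8 of 73 measured genes did in limma's test of the difference, where 2.29% of all genes passed. The lists were chosen with earlier results of these data known, so their share cannot be read as an enrichment. Values are the KO response minus the wt response in log2. Slc7a11, the cystine carrier, differed by 1.73 (adjusted p = 6.96e-05 in limma), rising in KO (1.05) and falling in wt (-0.67). Sesn2 differed by 1.19 (adjusted p = 0.000745 in limma) and Ero1a by 0.76 (adjusted p = 0.00276 in limma), and these calls held without any single array. In sham, Slc7a11, Sesn2 and Ero1a were lower in KO than in wt past the threshold (log2 -1.35, -1.21 and -0.6). Under paraquat they did not differ past it (0.38, -0.02 and 0.16, adjusted p = 0.169, 0.971 and 0.46 in limma).

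The other 5 calls were lost without single arrays. Rrm2 differed by -0.92 (adjusted p = 0.0227 in limma) and was lost in 6 of 12 such fits, and Txndc12 by 0.62 (adjusted p = 0.0209 in limma), lost in 5. Arrdc4 differed by -0.58 (adjusted p = 0.0238 in limma), lost in 7, and Txndc16 by 0.73 (adjusted p = 0.0317 in limma), lost in 10. Mafg differed by 0.54 (adjusted p = 0.05 in limma to the digits given), lost in 11. The 2 responses share no arrays, and no explanation was tested.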

How the results depend on the processing

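The 10 called changes of the 6 genes kept their direction in all 230 alternative fits and lost the threshold in 24. The 20 others passed it in 19 of 454 fits and turned direction in 6. Prdx2 for KO against wt in sham was -0.02 with median centring, -0.07 without KO sham 1 and -0.06 without wt sham 3, and -0.07 to 0.05 over all single arrays. Its response difference was 0.01 without KO sham 1 and 0 without wt sham 3 (range -0.11 to 0.01), and that of Prdx3 0.07 without KO sham 1 (range -0.2 to 0.07). With the replicate number as a block, Prdx4 passed for KO against wt in sham (log2 0.62, adjusted p = 0.0262 in limma), and no other call of the 6 genes changed. Genes higher in KO sham, 2 of 6, were 1 with median centring, with only the arrays compared, with every probe set and without both wt sham 2 and KO paraquat 3, and 1 to 3 without single arrays. Genes that rose with paraquat in KO, 3, were 1 without both arrays and 1 to 3 without single arrays. Genes that fell with paraquat in wt, 1, were 0 with only the arrays compared and with every probe set, and 0 to 1 without single arrays. Genes whose response was lower in KO, 0, were 1 (Txnip) with the offset of 16, the second quantile normalization, the filter and the trend, and 0 to 1 without single arrays. Over all genes, those differing between KO and wt under paraquat numbered 122, against 231 with the offset, 222 with the filter, 223 with the trend, 53 with every probe set, 3 with only the arrays compared, 44 without both arrays and 30 to 171 without single arrays. Those with different responses numbered 508, against 882, 894, 783 and 297 under the first 4 of these, 268 without both arrays and 250 to 700 without single arrays. Those differing in sham numbered 2273, against 976 with only the arrays compared, 1360 without both arrays and 1418 to 2363 without single arrays. Prdx4 was dim and nearest the array medians in wt paraquat, so signal over background limits its folds, and 3 arrays per group limit all of them. Prdx1 alone, Prdx5 and Prdx6 were not analysed here.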
